A study of Drosophila melanogaster with 5 samples.

Results

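The genes described here make, use or follow on from the molybdenum cofactor in the breakdown of purines and aldehydes of the fruit fly. They are ry, mal, cin, Uro and the aldehyde oxidase genes AOX1, AOX2, AOX3 and AOX4, which are 8 of the 16988 genes with a transcript in the counts. All rows of these genes were taken by symbol, which gave 11 of the 34111 RefSeq transcripts. Of the 11, 8 transcripts had at least 10 counts summed over the libraries and were tested, 1 for each gene, and the other 3 had no count in any library.

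LB-flies (low background radiation) were wild-type Oregon-R males that developed in the shielded underground laboratory, and NB-flies (normal background radiation, the controls) were males of the same line kept at the same time in the ground laboratory of the same observatory. All flies were adults of day 3 by the sample labels and were raised in the dark on the same medium. RNA of whole males pooled by vial was sequenced, with 3 LB libraries and 2 NB libraries, each from a separate vial. Radiation and the other conditions of the 2 places cannot be told apart, and p-values measure the spread between vials of 1 experiment.

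Molybdoenzymes carry a molybdenum atom held by a small organic cofactor. Xanthine dehydrogenase, the product of ry (rosy), oxidizes hypoxanthine to xanthine and xanthine to urate, and it also makes the pteridine isoxanthopterin, so that flies without it have a brownish eye colour. The aldehyde oxidases are relatives of this enzyme and turn aldehydes into acids. The cin (cinnamon) protein inserts the metal into the cofactor, and the mal (maroon-like) protein adds the sulphur atom that xanthine dehydrogenase and the aldehyde oxidases need. Uro encodes urate oxidase, an enzyme of the Malpighian tubules that starts the conversion of urate to allantoin.

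Each library held from 23027411 to 26036113 counted reads, and 3 counts corresponded to between 0.115 and 0.136 CPM (counts per 1000000 counted reads, with the library size scaled by the TMM method). Whole males were measured: of 10 testis marker genes and 8 male accessory gland genes all were tested, while the 8 markers of female reproductive tissue summed to between 6.91 and 9.70 CPM in LB-flies and to 5.48 and 6.22 CPM in NB-flies, with Yp1 and Vm26Aa at 0. Over all 17337 tested transcripts, edgeR's quasi-likelihood test with an FDR of 0.05 and a 1.5-fold limit called 0 (0%), and 1313 (7.57%) had an unadjusted p under 0.05. DESeq2 called 76 (0.618% of the 12293 with an adjusted p), and limma-voom called 0.

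How far a gene can be measured in these files depends on its isoforms, because reads in exons shared by several transcripts of a gene were left out of every count. Ambiguous reads made up between 53.9% and 56.3% of the records in LB-flies, against 55.3% and 56.5% in NB-flies. These can also include reads shared between overlapping genes, which were not counted apart. The annotation of the same genome release (Release 6, dm6 coordinates) gives 1 isoform and no overlapping gene for ry, Uro, AOX1, AOX2 and AOX4, so that reads from all their exons could be counted. For mal, cin and AOX3 it gives 2 isoforms, of which the shorter lies wholly within the longer. The shorter isoform therefore has no base of its own, and in each of these genes 1 transcript had 0 counts in all 5 libraries. The longer isoform has 460 bases of its own in mal and 399 in AOX3. In cin it has 56, and all 56 also lie in exons of CG13377 or asRNA:CR43906. Where the counted transcript is the longer one, the counts of mal, cin and AOX3 describe a small part of each gene, and for cin the origin of the reads is uncertain, since the use of strand in the counting was not stated.

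Xanthine dehydrogenase RNA was lower in LB-flies in every library. Of the 8 genes, ry was the only one whose LB and NB values did not overlap, beside 27.9% of all tested transcripts. The gene lies on chromosome 3R from 13032528 to 13038020 on the plus strand, with 4 exons and 4337 exonic bases (transcript NM_079613.3). Its counts were 2788, 2607 and 2834 in LB replicates 1, 2 and 3, against 5085 and 5640 in NB replicates 1 and 2. After normalization this was 106, 118 and 119 CPM in LB-flies, against 205 and 216 CPM in NB-flies. The highest LB library was thus well below the lower NB library, and the spread within each group was small, with an SD of 6.28% of the mean in LB-flies and 3.88% in NB-flies. Counting error alone would give 1.96% in the library with the fewest reads of ry.

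**Figure D1:**
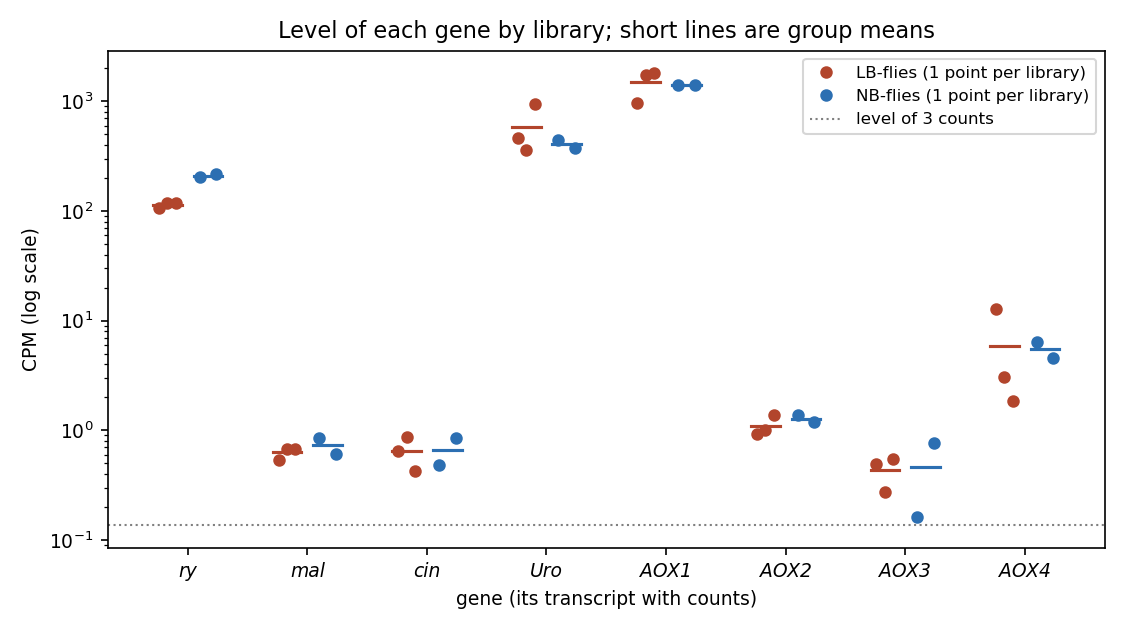
Level of the 8 genes in each library (CPM, log scale), with LB-flies left of NB-flies, 1 point for each library, short lines at group means and a dotted line at the level of 3 counts. Only ry has its LB points (106 to 119 CPM) apart from its NB points (205 and 216 CPM), and mal, cin, AOX2 and AOX3 lie near 1 CPM or below. Groups did not overlap in 27.9% of all tested transcripts.

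The mean level of ry was 115 ± 7.21 CPM in LB-flies (SD, n = 3) and 211 ± 8.16 CPM in NB-flies (SD, n = 2). The fitted log2 fold change was -0.88, with an SE of 0.12. On the linear scale the LB level was 0.545 times the NB level, with a 95% interval from 0.448 to 0.663. By its unadjusted p (2.4e-04, quasi-likelihood test of edgeR) ry stood at rank 8 of the 17337 tested transcripts. Adjusted over all transcripts the p was 0.468 in edgeR and 0.347 in limma-voom, so that neither test called it. DESeq2, the tool of the study's methods, gave an adjusted p of 4.0e-05 and called ry.

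The size of this difference hardly moved with the setting, while the call did. Over 23 alternative settings the log2 fold change of ry lay between -0.91 and -0.81 and was below 0 in each of them. The DESeq2 call held without LB replicate 1 (adjusted p = 3.8e-04) and without LB replicate 3 (adjusted p = 0.00321). The adjusted p was 0.0584 in DESeq2 without LB replicate 2, 0.104 without NB replicate 1 and 0.432 without NB replicate 2. Leaving out an NB library leaves 1 control library, which is then assumed to vary like the LB libraries, so these last values say little about stability. None of the 14 alternatives with edgeR or limma-voom gave an adjusted p under 0.05.

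**Figure D2:**
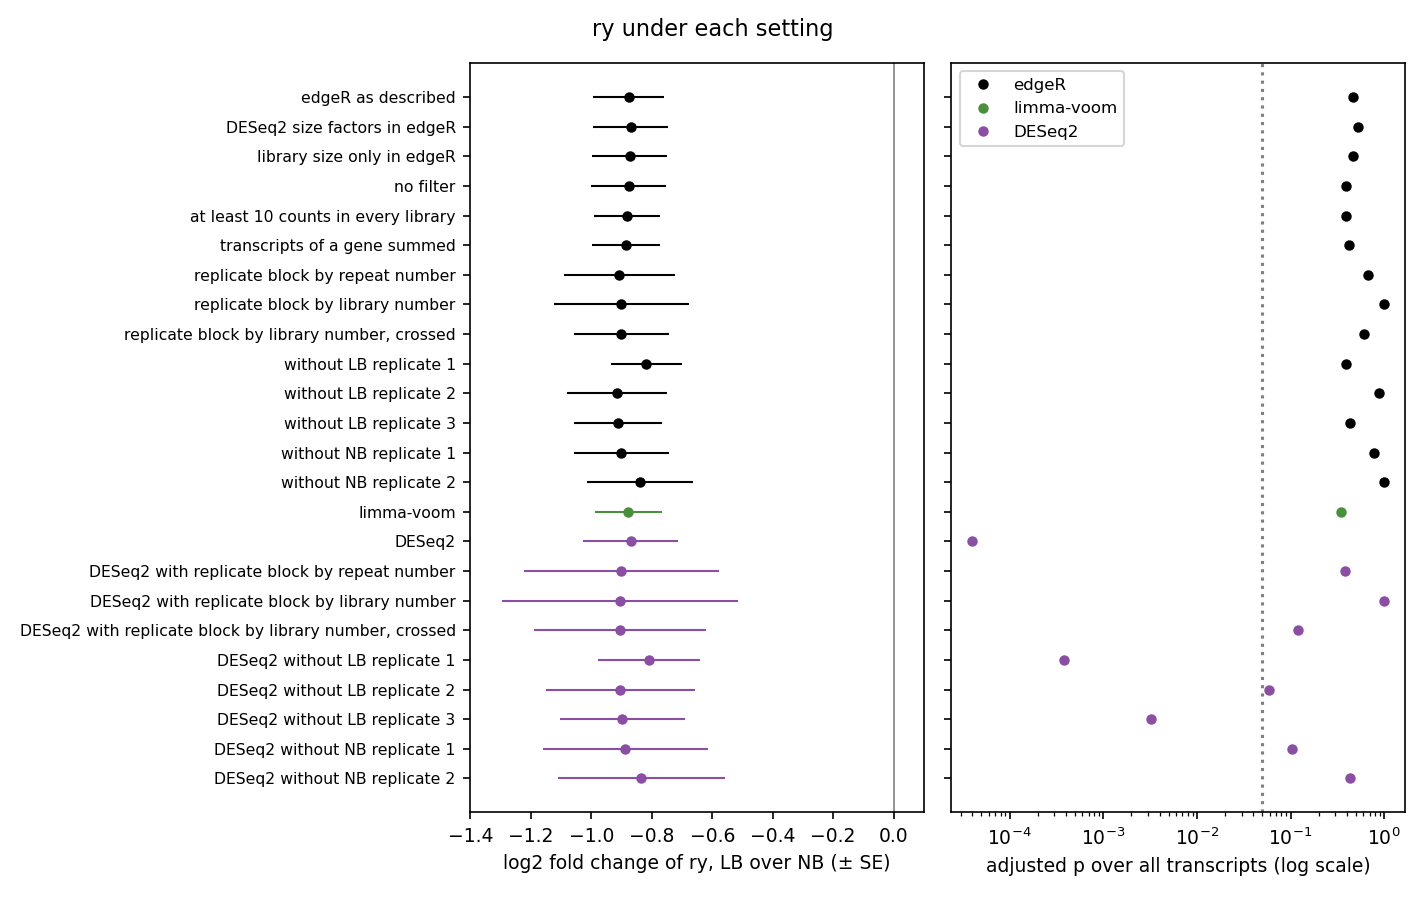
Log2 fold change of ry, LB over NB, with its SE (left) and its p adjusted over all transcripts on a log scale (right), 1 line for each setting and tool, with 0.05 dotted. The fold change stays between -0.91 and -0.81, and 3 of the 9 alternatives run with DESeq2, and none run with edgeR or limma-voom, are left of 0.05.

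Of the 8 genes, edgeR's quasi-likelihood test and limma-voom called 0 and DESeq2 called 1, ry. An unadjusted p under 0.05 was found for 1 of 8 (12.5%), beside 7.57% of all tested transcripts, and groups that did not overlap for 1 of 8, beside 27.9% of all. Among all tested transcripts 3.66% had an unadjusted p under 0.05 and were lower in LB-flies, and 3.91% were higher. Of the transcripts with an adjusted p in DESeq2, 0.366% were called lower. With 8 genes, 1 gene is near the share over all transcripts for the unadjusted p and for groups that did not overlap. For DESeq2 the 1 call is the single gene ry, and it stands beside 0.618% of the 12293 transcripts with an adjusted p. DESeq2 gave no adjusted p for mal, cin and AOX3, so these could not be called. In edgeR's fit 5 of the 8 were lower in LB-flies and 3 were higher, and 52.6% of all transcripts were lower.

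Libraries of whole flies hold many tissues, and in such RNA fewer cells of a type and less RNA per cell cannot be told apart. Xanthine dehydrogenase is known from the fat body and the Malpighian tubules. The 9 fat body markers summed to 635, 839 and 962 CPM in LB-flies, against 1263 and 1041 CPM in NB-flies, so that all LB sums lay below both NB sums. The mean sum in LB-flies was 0.705 times that in NB-flies, a smaller difference than the 0.545 of ry. Of the 15 tested transcripts of this list, 10 were lower and 5 higher in LB-flies, and DESeq2 and edgeR called 0. The median log2 fold change was -0.45, beside -0.02 over all tested transcripts. An unadjusted p under 0.05 in edgeR was found for 3, all lower in LB-flies, beside 3.66% of all tested transcripts. These were 1 transcript of Apoltp and 2 of Desat1, a fatty acid desaturase gene, of which 1 had at most 2.78 CPM (NM_169465.1). The lipid transfer gene Apoltp had 286, 343 and 367 CPM in LB-flies, against 460.5 and 445 CPM in NB-flies. Among the 5 higher transcripts, that of the gene to had 8.25, 8.04 and 7.12 CPM in LB-flies, against 6.93 and 5.95 CPM in NB-flies. The larval storage protein gene Lsp2 was at 0 in LB replicate 1. The part of the fat body in the difference of ry was not tested.

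The 8 midgut markers also summed to less in LB-flies, with 9840, 13086 and 10735 CPM, against 13577 and 13806 CPM in NB-flies. Only 1 of their 7 tested transcripts, Jon99Ciii, had an unadjusted p under 0.05 in edgeR, beside 7.57% of all tested transcripts. It had 57.4, 94.0 and 73.1 CPM in LB-flies, against 125 and 141 CPM in NB-flies. The 15 Malpighian tubule markers did not differ in this way. Their sums of 159, 182 and 192 CPM in LB-flies overlapped the 191 and 173 CPM in NB-flies, and the tested transcript of the receptor gene CapaR was near 0 in all libraries (at most 0.242 CPM). Drip, Irk1, Nha2, Ncc69 and ZnT35C have more than 1 tested transcript each. Since reads in shared exons were left out, these sums do not give the full level of such genes.

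Urate oxidase RNA overlapped between the groups, and 1 LB library held a much higher level than the others. Uro (NM_057431.3) lies on chromosome 2L from 7780085 to 7781415 on the plus strand, with 2 exons and 1262 exonic bases. It had 12050, 8003 and 22427 counts in LB-flies, against 11130 and 9836 counts in NB-flies, which were 460.2, 364 and 945 CPM in LB-flies, against 448 and 377 CPM in NB-flies. LB replicate 3 stood high above the rest, and the other LB libraries lay at the NB levels, with the lowest value of all in LB replicate 2. The log2 fold change was 0.51 (SE 0.41, edgeR adjusted p = 0.746), with a 95% interval on the linear scale from 0.721 to 2.83. Without LB replicate 3 it was -0.01 in edgeR. Counting error was at most 1.12% for this gene in each library, and the SD between LB libraries was 52.9% of their mean.

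The summed tubule markers were at 192 CPM in LB replicate 3 and at 191 CPM in NB replicate 1, and tsh and Oatp58Db gave much of each sum (56.2 and 43.2 CPM in LB replicate 3, against 58.7 and 48.5 CPM in NB replicate 1). Of the 15 tubule marker genes, ZnT35C, a zinc transporter gene, was the only one with a transcript at an unadjusted p under 0.05 in edgeR, with 15.0, 18.3 and 24.1 CPM in LB-flies, against 11.5 and 13.7 CPM in NB-flies (NM_135897.5). A transcript of Ncc69, an ion cotransporter gene, was also highest in LB replicate 3 (NM_001274829.1). It had 0.267, 0.591 and 1.01 CPM in LB-flies, against 0.322 and 0.153 CPM in NB-flies. The other tested transcript of each gene was not highest there. That of ZnT35C (NM_165105.3, log2 fold change 0.09) had 14.5 CPM in LB replicate 3, against 15.3 CPM in LB replicate 1. That of Ncc69 (NM_001274830.2, log2 fold change -0.66) had 0.169 CPM in LB replicate 3, against 0.192 CPM in NB replicate 2. Of the 23 tubule transcripts, 14 were lower and 9 higher in LB-flies. Of all tested transcripts, 52.6% were lower, and 3.91% were higher with an unadjusted p under 0.05 in edgeR. The part of the tubules in the level of Uro was not tested.

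**Figure D3:**
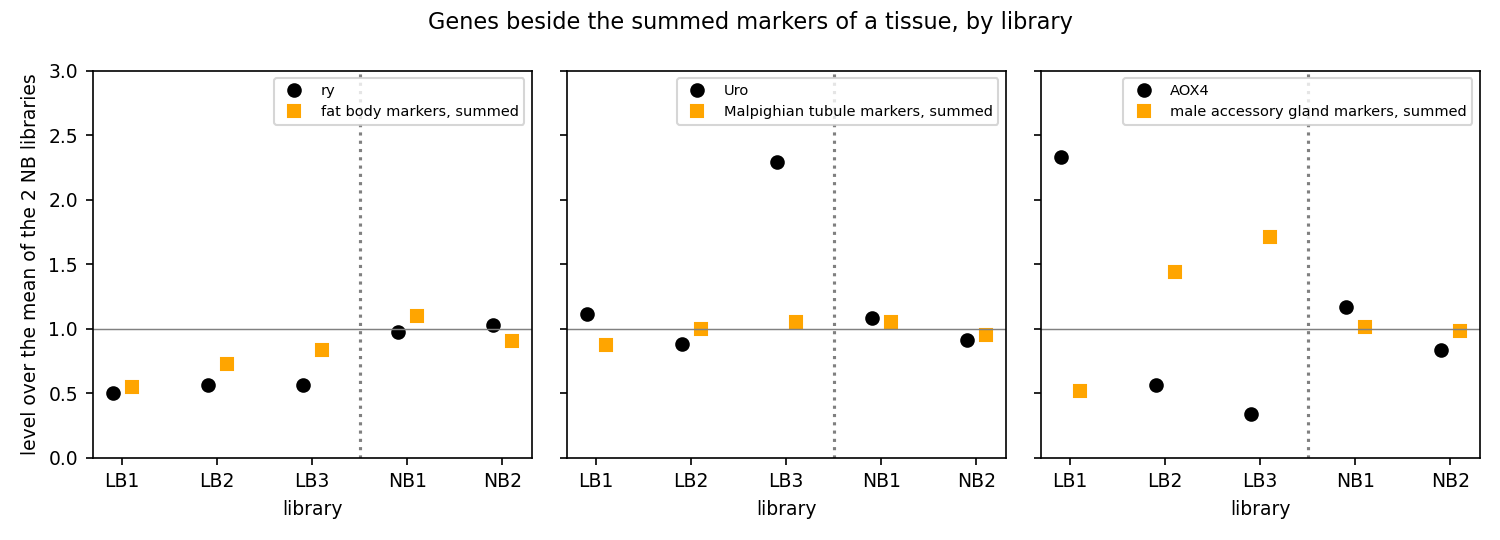
Levels of ry, Uro and AOX4 (circles) beside the summed level of the fat body, Malpighian tubule and male accessory gland markers (squares) in each library, each divided by its mean over the 2 NB libraries. Both ry and the fat body sum are below both NB values in all LB libraries, Uro is high in LB replicate 3 (945 CPM) where the tubule marker sum is 192 CPM, and AOX4 and the accessory gland sum lie on opposite sides of their NB values in each LB library.

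The aldehyde oxidase genes form a row on chromosome 3R from 15532137 (AOX1) to 15552833 (AOX4), all on the minus strand, with 420, 333 and 439 bases between neighbours. Within this row of 20697 bases the levels differed by about 3 orders of magnitude. AOX1, for which the gene table lists the older names lpo and Po, had 25561, 37989 and 42809 counts in LB-flies, against 35380 and 36539 counts in NB-flies, which were 976, 1726 and 1804 CPM in LB-flies, against 1425 and 1402 CPM in NB-flies. The NB libraries were nearly equal, with an SD of 1.17% of the mean, while the LB libraries lay on both sides of them, and LB replicate 1 was the lowest. Its log2 fold change was 0.09 (SE 0.27, edgeR adjusted p = 0.944), and on the linear scale the 95% interval reached from 0.671 to 1.68.

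AOX2, from 15537713 to 15542414, had between 22 and 33 counts in LB-flies, against 31 and 34 counts in NB-flies. The levels were 0.917, 0.999 and 1.39 CPM in LB-flies, against 1.37 and 1.19 CPM in NB-flies, and they overlapped. The log2 fold change of -0.21 (SE 0.30) had a 95% interval from 0.519 to 1.43 on the linear scale, which includes the fold of ry (0.545). The counted transcript of AOX3 (NM_001316510.1), from 15542748 to 15548188, had 13, 6 and 13 counts in LB-flies, against 4 and 20 counts in NB-flies. Its levels were 0.496, 0.273 and 0.548 CPM in LB-flies, against 0.161 and 0.767 CPM in NB-flies. The 2 NB vials enclosed the LB vials, and the interval of its fold, from 0.299 to 2.99, covers large differences in both directions, the fold of ry included.

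AOX4, from 15548628 to 15552833, varied most among the genes with all exons counted. It had 335, 68 and 44 counts in LB-flies, against 159 and 119 counts in NB-flies, which were 12.8, 3.09 and 1.85 CPM in LB-flies, against 6.41 and 4.57 CPM in NB-flies. LB replicate 1 was above both NB libraries and the other LB libraries were below them, and the LB libraries differed by 6.90 times. The log2 fold change was 0.11 (SE 0.78, edgeR adjusted p = 0.977), and without LB replicate 1 it was -1.14 (SE 0.34, edgeR adjusted p = 0.420).

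LB replicate 1 also stood apart in the male accessory gland genes, whose summed level was 1994, 5547 and 6588 CPM in LB-flies, against 3899 and 3791 CPM in NB-flies. None of these 8 genes was at 0, none of them had an unadjusted p under 0.05 in edgeR, and the groups overlapped for each. The accessory gland sum was lowest where AOX4 was highest. The part of the tissue makeup of LB replicate 1 in the levels of AOX4 and AOX1 was not tested.

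Levels of different genes can be set beside each other only per length, and only for the 5 genes with 1 isoform. Per kilobase of exon, Uro had a mean of 467 CPM in LB-flies and 327 in NB-flies, and AOX1 had 355 in LB-flies and 334 in NB-flies. Uro was above AOX1 in LB replicates 1 and 3 and NB replicate 1 and below it in the other libraries, so that the order of these 2 genes was not fixed. ry came next, with 26.5 CPM per kilobase in LB-flies and 48.6 in NB-flies. AOX1 exceeded ry by 9.40, 14.9 and 15.5 times per kilobase in LB-flies, against 7.14 and 6.65 times in NB-flies. AOX4 had 1.54 CPM per kilobase in LB-flies and 1.43 in NB-flies, and AOX2 had 0.279 in LB-flies and 0.324 in NB-flies. AOX1 exceeded AOX2, its neighbour, by between 995 and 1613 times in LB-flies and by 972 and 1101 times in NB-flies. AOX4 was above AOX2 in all 5 libraries, by between 1.37 and 14.4 times.

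**Figure D4:**
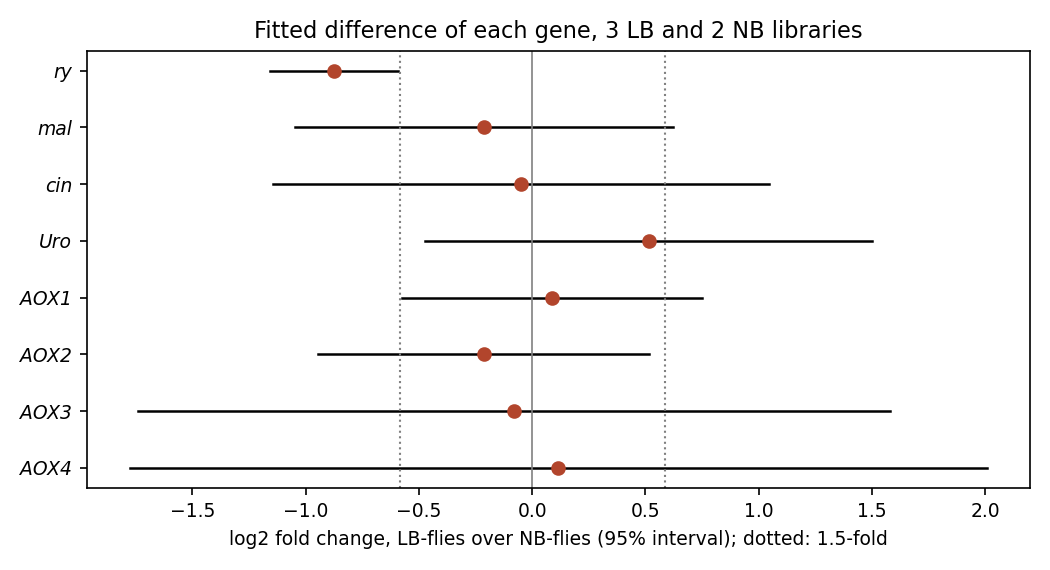
Log2 fold change of each of the 8 genes, LB-flies over NB-flies, from edgeR's fit over 3 LB and 2 NB libraries, with 95% intervals and dotted lines at 1.5-fold. The interval of ry lies below 0 (-1.16 to -0.59), all others include 0, and those of AOX3 and AOX4 are the widest.

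The cofactor genes mal and cin had few counts in every library. The counted transcript of mal (NM_001298564.1; chromosome X from 20429675 to 20433210, plus strand) had 14, 15 and 16 counts in LB-flies, against 21 and 16 counts in NB-flies. These were 0.535, 0.681 and 0.674 CPM in LB-flies, against 0.846 and 0.614 CPM in NB-flies, with a log2 fold change of -0.21 (SE 0.34). Its fold had a 95% interval from 0.484 to 1.54, which at this depth also includes the fold of ry. The counted transcript of cin (NM_057682.4; chromosome X from 255674 to 258469, plus strand) had 17, 19 and 10 counts in LB-flies, against 12 and 22 counts in NB-flies. Its levels of 0.649, 0.863 and 0.421 CPM in LB-flies overlapped the 0.483 and 0.844 CPM in NB-flies. The interval of its fold reached from 0.452 to 2.06, which includes the fold of ry as well.

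The list of 6 genes of cofactor synthesis, mal and cin included, had 5 tested transcripts, of which 4 were lower and 1 higher in LB-flies, at a median log2 fold change of -0.21 and 0 at an unadjusted p under 0.05. Neither edgeR's quasi-likelihood test nor DESeq2 called any of them. Mocs1, which acts in the first step of the synthesis, was the only one of this list above 1 CPM, with 7.41, 12.1 and 8.68 CPM in LB-flies, against 6.49 and 9.02 CPM in NB-flies. Its groups overlapped. Mocs2A and Mocs2B, which encode the subunits of molybdopterin synthase, had no count in any library. Reads in exons shared by several transcripts were left out, and the exons of these genes were not examined. Their 0 counts therefore do not show that their RNA was absent.

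Besides ry and the aldehyde oxidases, the fly has other molybdoenzymes, and both genes listed for them were lower in every LB library. Sulphite oxidase, the product of shop, needs the cofactor without the sulphur that mal adds. The level of shop was 50.0, 55.2 and 73.9 CPM in LB-flies, against 99.3 and 95.7 CPM in NB-flies, with a log2 fold change of -0.71 (SE 0.18, unadjusted p = 0.00794 and adjusted p = 0.625 in edgeR). Marc encodes the mitochondrial amidoxime reducing component and had 41.2, 45.7 and 64.1 CPM in LB-flies, against 102 and 73.4 CPM in NB-flies. Its log2 fold change was -0.80 (SE 0.24, unadjusted p = 0.0137 and adjusted p = 0.625 in edgeR). DESeq2 did not call shop (adjusted p = 0.283) or Marc (adjusted p = 0.367). In all tested transcripts, the 3 LB values lay below both NB values in 13.1%, and 3.66% were lower in LB-flies with an unadjusted p under 0.05.

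The genes of purine breakdown did not move as 1 group. Their list of 17 genes had 19 tested transcripts, of which 12 were lower and 7 higher in LB-flies, at a median log2 fold change of -0.07. An unadjusted p under 0.05 in edgeR was found for 5 lower and 3 higher of the 19 transcripts, beside 3.66% lower and 3.91% higher over all tested transcripts. DESeq2 called ry alone, beside 0.618% of all transcripts with an adjusted p, which some of the 19 lacked. Upstream of ry, DhpD, a deaminase of guanine and pteridines, had 74.3, 82.6 and 117 CPM in LB-flies, against 170 and 150 CPM in NB-flies, a log2 fold change of -0.81 (SE 0.21, edgeR adjusted p = 0.625). Adgf-D, a secreted adenosine deaminase related to growth factors, had 279, 227 and 210 CPM in LB-flies, against 353 and 344 CPM in NB-flies.

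Adgf-E, of the same enzyme family, lay on the other side. It had 192, 218 and 216 CPM in LB-flies, against 172 and 146 CPM in NB-flies, a log2 fold change of 0.39 (SE 0.14, unadjusted p = 0.0265 and adjusted p = 0.625 in edgeR). The other genes of this list with an unadjusted p under 0.05 in edgeR were Adgf-B (log2 fold change 0.38) and CG18128 (0.44), with higher LB values, and Adgf-A (-1.48) and CG6106 (-1.01), with lower LB values. The last 2 had at most 1.41 CPM in any library.

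The lists next to purine breakdown were counted in the same fit. De novo IMP synthesis, which builds the purine ring, had 12 tested transcripts from 6 genes, of which 11 were lower in LB-flies, beside 52.6% of all tested transcripts, at a median log2 fold change of -0.68. An unadjusted p under 0.05 was found for 6, all lower, beside 3.66% of all. One of the 6, a second transcript of Gart (NM_001298769.1), had at most 0.242 CPM. DESeq2 called 2, beside 0.618% of all transcripts with an adjusted p, which some of the 12 lacked, and edgeR called 0. The sum of the fat body markers was lower in the same libraries (635 to 962 CPM in LB-flies, against 1263 and 1041 CPM in NB-flies). The part of the fat body in these counts was not tested. The 2 are Paics (log2 fold change -0.95, SE 0.15, DESeq2 adjusted p = 0.00131) and Adsl (log2 fold change -0.81, SE 0.17, DESeq2 adjusted p = 0.0303), whose enzymes act one after the other in the pathway. Paics had 34.0, 35.8 and 42.0 CPM in LB-flies, against 65.5 and 78.1 CPM in NB-flies (NM_132598.4). Adsl had 287, 264 and 207 CPM in LB-flies, against 426 and 460 CPM in NB-flies. The third by p, a transcript of Gart (NM_001014477.2), had 12.8, 9.81 and 12.1 CPM in LB-flies, against 17.7 and 18.0 CPM in NB-flies. Purine salvage and interconversion, to which Adsl also belongs, had 3 of 7 tested transcripts higher and 4 lower, with a median of -0.27, and Adsl was its only transcript with an unadjusted p under 0.05 and its only DESeq2 call.

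Pteridines share the enzyme of ry. Of 13 tested transcripts of pteridine synthesis, 8 were lower and 5 higher in LB-flies, and 52.6% of all tested transcripts were lower. An unadjusted p under 0.05 was found for 4, all lower, beside 3.66% of all, and edgeR and DESeq2 called 0. The 4 come from 3 genes, with 2 transcripts of Hn, and 1 of them is that of DhpD already counted in purine breakdown. Hn, the phenylalanine hydroxylase gene that is also needed for eye pteridines, had a transcript with 2.44, 2.09 and 2.53 CPM in LB-flies, against 4.39 and 4.68 CPM in NB-flies (NM_001014573.2, log2 fold change -0.94, SE 0.20, edgeR adjusted p = 0.625). Sptr, the sepiapterin reductase gene, had 24.5, 28.7 and 29.6 CPM in LB-flies, against 38.3 and 34.8 CPM in NB-flies. Among the 5 higher transcripts, 1 of Pu had all LB values above both NB values (NM_166431.4). It had 8.36, 4.23 and 5.23 CPM in LB-flies, against 4.11 and 2.26 CPM in NB-flies. Its log2 fold change was 0.90 (SE 0.40, unadjusted p = 0.0616 in edgeR). The groups of the other Pu transcript overlapped (NM_166430.3, log2 fold change 0.27).

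Other enzymes that act on aldehydes and alcohols had 8 tested transcripts, of which 6 were lower and 2 higher in LB-flies, at a median log2 fold change of -0.24 and 0 calls in edgeR and DESeq2. Of all tested transcripts, 52.6% were lower in LB-flies, and 3.66% were lower with an unadjusted p under 0.05 in edgeR. Sodh2, a sorbitol dehydrogenase gene, was the only one of the list with such a p. It had 223, 251 and 216 CPM in LB-flies, against 355 and 296 CPM in NB-flies. Aldh, the mitochondrial aldehyde dehydrogenase gene, had 20.4, 24.3 and 25.1 CPM in LB-flies, against 19.2 and 17.5 CPM in NB-flies, with an unadjusted p of 0.0719 in edgeR.

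**Figure D5:**
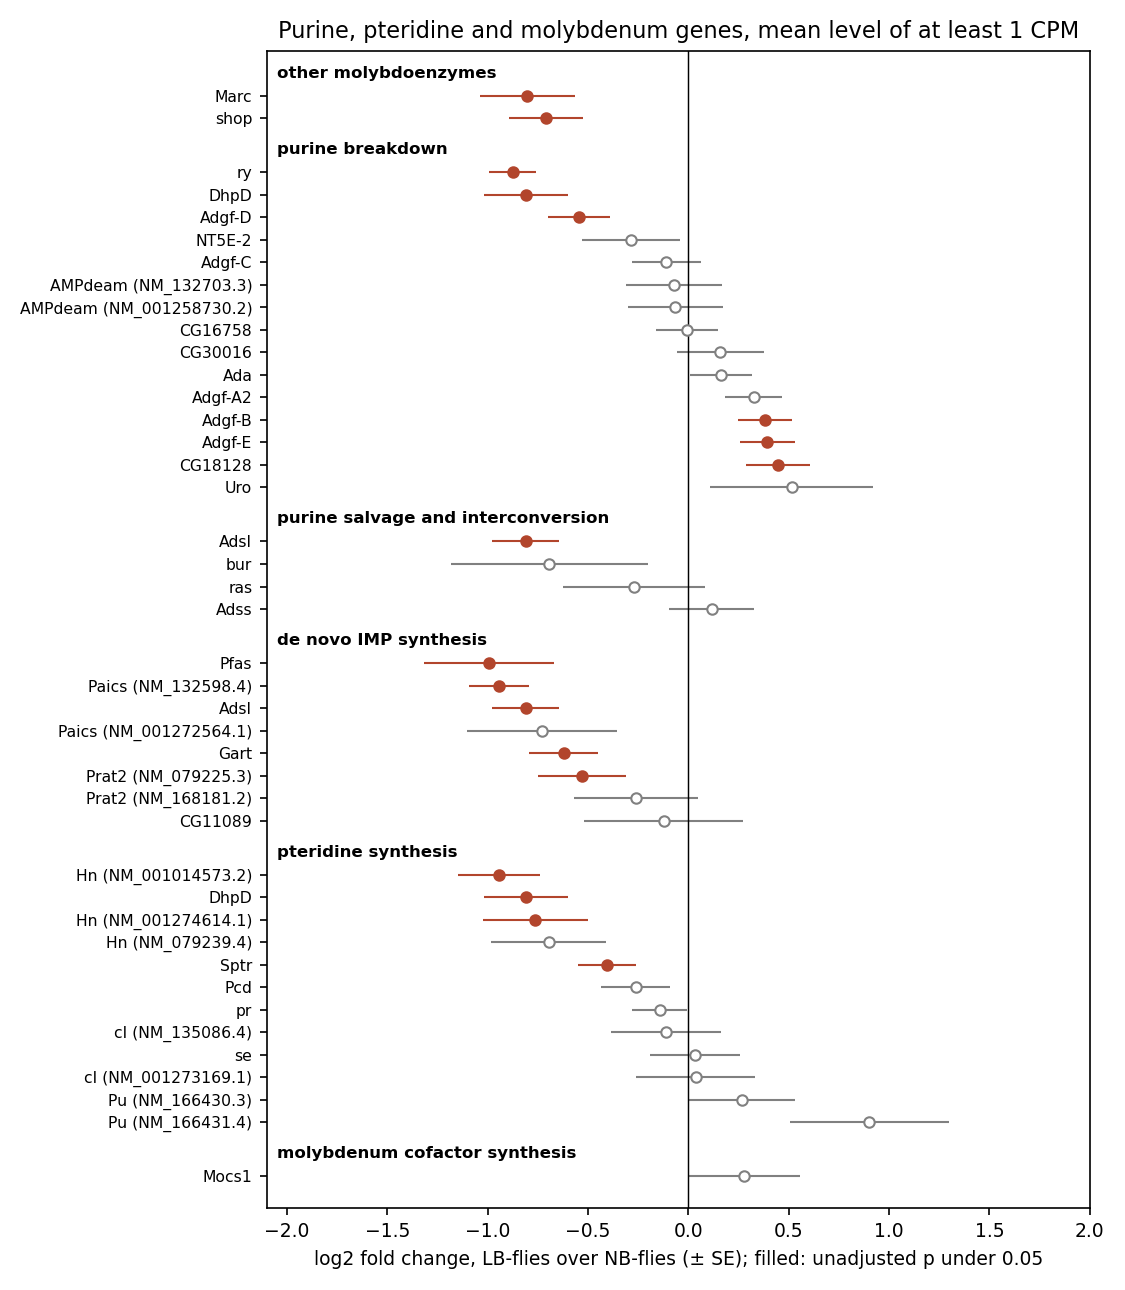
Log2 fold changes with SE, LB-flies over NB-flies, of the transcripts with a mean of the 2 group means of at least 1 CPM in the lists of molybdenum, purine and pteridine genes, filled where the unadjusted p in edgeR is under 0.05. De novo IMP synthesis and the molybdoenzymes shop and Marc lie left of 0, and purine breakdown spreads from ry (-0.88) to Uro (0.51).

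Likeness of profiles was measured over 7021 other transcripts whose log2 CPM averaged 3 or more. The profile over the 5 libraries most like that of ry was that of a transcript of Shmt, a gene of one-carbon metabolism, with a root mean square difference of 0.088 on the log2 scale after centring. It had 22.2, 21.5 and 25.2 CPM in LB-flies, against 40.4 and 40.2 CPM in NB-flies (NM_132050.2). Next came Paics (0.093), mino (0.098), a transcript of Cyt-b5-r (0.106) and the neprilysin-like gene Nepl9 (0.111). The likeness describes levels in 5 libraries and includes the difference between the groups.

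For Uro the nearest profiles were those of CG5290 (0.096), Arc2 (0.106), a transcript of Fim (0.131), p38c (0.135) and Mayo (0.147). CG5290 had 26.1, 18.5 and 60.4 CPM in LB-flies, against 25.5 and 21.8 CPM in NB-flies, and like Uro it was highest in LB replicate 3 and lowest in LB replicate 2.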

How the data were processed

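Poly(A) RNA of whole males was sequenced in 5 libraries. The counts deposited by the authors are whole reads per RefSeq transcript, made with FastQC, Trim Galore, cutadapt, HISAT2 and HTSeq on dm6 per the submitters' processing notes, and were not normalized. Strand and counting mode of HTSeq are not given in the sources used here, and its 5 summary lines per file were left out. Of the transcripts, 33912 were matched to gene symbols, 33766 of them with the version number (Release 6 gene table).

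Transcripts whose counts summed to 10 or more were tested with edgeR 4.0.16 (quasi-likelihood, TMM, R 4.3.3), with Benjamini-Hochberg adjustment over all tested, and called at an FDR of 0.05 and 1.5-fold. DESeq2 1.42.0 with default filtering, limma 3.58.1 (voom), other scalings and filters, summed transcripts, replicate blocks and each library left out were alternatives. CPM used TMM libraries. Intervals are at 95%, and floors (3 counts) cover counting error only.

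The 8 genes and 14 lists were chosen with earlier results of these data known. Named from each list were up to 3 genes of smallest unadjusted p and any DESeq2 call. Chosen after their values were seen were markers at or near 0, tsh, Oatp58Db, Pu and the remaining purine breakdown genes with an unadjusted p under 0.05. Also named were, for ry and Uro, the 5 nearest profiles in log2(CPM + 0.5).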

Additional observations from a re-analysis of the deposited data

How the results depend on the processing

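The count of called transcripts depended on the tool. Over the whole table edgeR called 0 (1313 at an unadjusted p under 0.05), also with other scalings and filters and with summed transcripts, and limma-voom called 0, while DESeq2 called 76 and, of the 8 genes, 1 (ry). With single libraries left out edgeR called 0 or 1 over the whole table, and DESeq2 called 150, 58 and 105 without LB replicates 1, 2 and 3, 69 without NB replicate 1 and 27 without NB replicate 2. Of the 8 genes 0 or 1 were then called. The numbers of lower transcripts in the gene lists were the same with DESeq2. A replicate block by the repeat number gave 5 calls in edgeR and 80 in DESeq2, a block by the library number 0 and 64, and the crossed block, chosen after seeing the data, 0 and 92. The numbers are not stated to mark a shared batch, and same-numbered libraries deviated with correlations of -0.18 and 0.02 (repeat number) or -0.18 and -0.20 (library number) over 6886 transcripts, so they were not treated as pairs. No block gave a call among the 8 genes, the DESeq2 adjusted p of ry being 0.385 with the block by repeat number, 0.9998 by library number and 0.119 crossed, and the log2 fold change of ry was -0.91 with the block by repeat number in edgeR. Of 183 values of the 8 genes under alternatives, 41 had the other sign, and ry and AOX2 had none of these. With the blocks by repeat number, by library number and crossed, AOX1 was -0.12, -0.091 and -0.091 in edgeR and -0.12, -0.10 and -0.10 in DESeq2. AOX3 was 0.37 by library number and 0.33 crossed in edgeR, 0.032, 0.51 and 0.50 in DESeq2, and 0.22 in limma-voom. AOX4 was -0.10 and -0.063 by library number and crossed in edgeR, -0.13 and -0.12 in DESeq2, and -0.33 in limma-voom. By repeat number, cin was 0.21 in edgeR and 0.23 in DESeq2, and Uro was -0.0081 in edgeR and -0.0024 in DESeq2. With single libraries left out, the log2 fold changes of AOX1 ranged from -0.071 to 0.33 in edgeR and, in DESeq2, from -0.053 to 0.33, and were -0.027 without LB replicate 2. Those of AOX3 ranged from -0.78 to 1.42 in edgeR and to 1.45 in DESeq2, where the value without LB replicate 2 was 0.17, and those of AOX4 from -1.14 to 0.52 in edgeR and to 0.53 in DESeq2. For cin they ranged from -0.38 to 0.40 in edgeR and to 0.41 in DESeq2, where the value without LB replicate 3 was 0.19, for mal from -0.43 to 0.048 in edgeR and to 0.063 in DESeq2, and for Uro from -0.015 to 0.75 in edgeR and from -0.0010 to 0.76 in DESeq2. The cause was not tested. Depth limits mal, cin, AOX2 and AOX3, with 4 to 34 counts a library. With 2 NB libraries the spread of the control flies rests on a single difference.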

Other observations

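Markers of other tissues in the same libraries had 0 calls in edgeR and DESeq2. Of the 10 testis transcripts, 9 were higher and 1 lower in LB-flies, with a median log2 fold change of 0.27, and the unadjusted p of edgeR was under 0.05 for 0 of them. The smallest unadjusted p was that of Tpl94D (0.0528 in edgeR), with 43.9, 38.6 and 38.9 CPM in LB-flies, against 32.6 and 33.0 CPM in NB-flies, and the protamine gene ProtB had 276, 281 and 267 CPM in LB-flies, against 231 and 228 CPM in NB-flies. All 8 accessory gland transcripts had a fitted log2 fold change above 0 (median 0.30). Of the 13 eye transcripts 8 were lower and 5 higher. An unadjusted p under 0.05 in edgeR was found for 2, both lower, beside 3.66% of all tested transcripts. These were transcripts of norpA, the phospholipase C gene of photoreceptors, and of rdgB. That of norpA had 0.993, 0.954 and 1.05 CPM in LB-flies, against 1.89 and 1.57 CPM in NB-flies (NM_001169190.2). Another norpA transcript was higher, with 0.382, 0.409 and 0.421 CPM in LB-flies, against 0.282 and 0.0384 CPM in NB-flies (NM_001297931.1). For rdgB the log2 fold change was -1.22 in NM_001272606.1, and 0.46, -0.17 and -0.05 in its other transcripts. Of the 23 Malpighian tubule transcripts 9 were higher and 14 lower (median -0.03), and of the 7 midgut transcripts 1 was higher and 6 lower (median -0.45). The 3 tested transcripts of female reproductive tissue were higher in LB-flies in the fit, and 2 of them had all LB values above both NB values. The groups of the Yp2 transcript overlapped, with 0.458, 0.0454 and 0 CPM in LB-flies, against 0.0403 and 0.0384 CPM in NB-flies. Cp18, a chorion gene, had 3.06, 2.14 and 2.32 CPM in LB-flies, against 1.21 and 1.61 CPM in NB-flies, with an unadjusted p of 0.0258 in edgeR. The part of tissue makeup in these values was not tested.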
